A study of Mus musculus with 3 samples.

Results

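Barcodes rich in both haemoglobin RNA and other genes were examined in 3 droplet-based single-cell RNA sequencing libraries of mouse peripheral blood mononuclear cells (PBMCs). A barcode, the tag shared by all RNA captured in 1 droplet, was a member if it held at least 200 genes, if over 50% of its unique molecular identifiers (UMIs, each counting 1 captured RNA molecule) came from Hba- or Hbb- genes, and if it held at most 1 UMI each of Cd79a with Cd79b, of Cd3d, Cd3e and Cd3g, and of Ptprc. There were 1523 such barcodes among 44212. They were thus selected on their number of genes, their globin share and these lymphocyte and leukocyte genes, and those values are given only as a description. The libraries came from female C57BL/6 mice, 1 library per group: young mice aged 8 weeks, aged mice of 16 months, and aged-GA mice of 16 months that received glycyrrhizic acid (GA, a saponin of liquorice root) at 5 mg/kg into the tail vein every 2 days for 30 days. Controls received saline by the same route according to the methods, while the sample labels give their treatment as none. Each library stands for blood of several mice according to a figure legend of the study, and the methods do not state whether it was pooled. With 1 library per group no test was possible, a difference between groups cannot be told apart from a difference between libraries, and every interval is an exact 95% interval that covers counting error only.

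Reticulocytes are red cells that have expelled the nucleus but still carry RNA, ribosomes and mitochondria, which they lose within days in the circulation. Haem synthesis, globin synthesis and the assembly of the membrane skeleton finish in this period, while ubiquitin-dependent proteolysis and autophagy clear organelles and unused proteins. Transcription has ended by then, so each RNA that remains was made earlier and is on its way to being degraded. Mature red cells carry far less RNA, and density separation of PBMCs removes most red cells but not all of them.

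Where 3 values stand side by side, they run from young over aged to aged-GA unless named. Members numbered 339 of 10842 barcodes in young mice, which is 3.13% (2.81% to 3.47%). They numbered 233 of 16038 in aged mice, 1.45% (1.27% to 1.65%), and 951 of 17332 in aged-GA mice, 5.49% (5.15% to 5.84%). Under this rule the share was thus lowest in the aged and highest in the aged-GA library. The order of the libraries changed with a higher minimum of genes and with a limit on UMIs of leukocyte and platelet markers. Of barcodes with over 50% globin UMIs, members made up 24.0%, 3.77% and 18.0%. The other globin-rich barcodes were gene-poor, with fewer than 200 genes (941, 5460 and 3812 barcodes), or mixed, with 200 genes or more but too many UMIs of lymphocyte genes or of Ptprc (132, 488 and 523 barcodes). These numbers describe what the rule selects and also follow how much red cell material remained in each preparation, which was not tested.

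**Figure D1:**
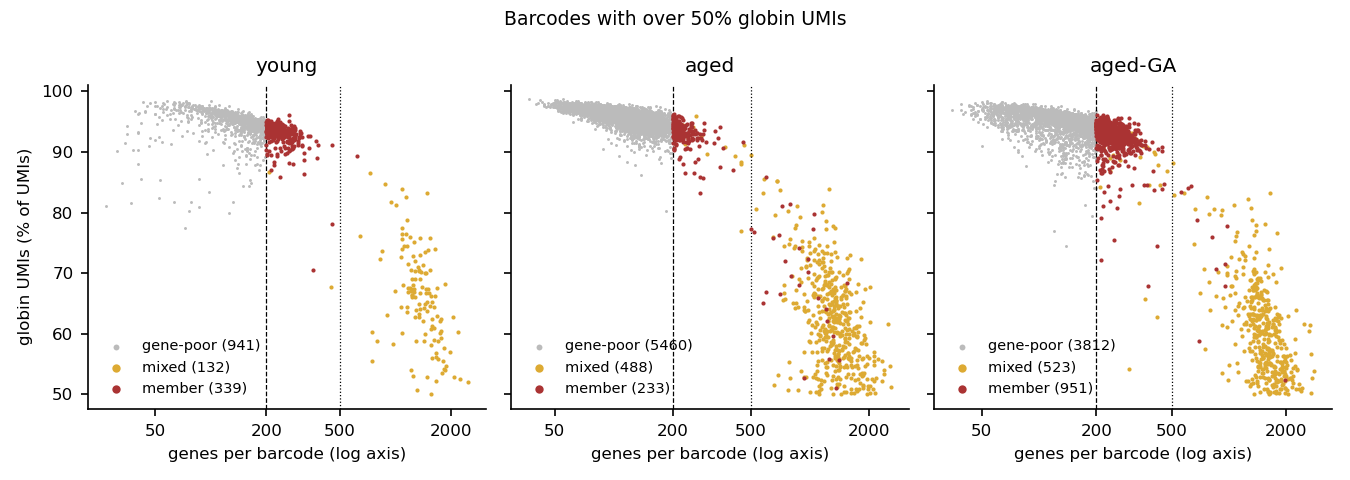
Number of genes (log axis) against the share of globin UMIs for every barcode with over 50% globin UMIs, 1 panel per library, with the limits of 200 genes (dashed) and 500 genes (dotted). Most members form a dense group just above 200 genes next to the gene-poor barcodes, and 26 aged members lie among the mixed barcodes at 500 genes or more.

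The median member held 11743 UMIs, 7326 and 7401. Outside the globin genes the median was 772, 503 and 512 UMIs, and the median number of genes was 228, 219 and 230. Globin made up a median of 93.3%, 93.2% and 93.1% of UMIs. The medians of genes and globin share, both used by the rule, were alike, but aged members reached further, with a 95th percentile of 306, 945 and 322 genes and a 5th percentile of 89.7%, 68.2% and 88.4% globin. Young members held more UMIs, so levels were also compared between barcodes of 8000 to 12000 UMIs. The non-globin UMIs of all members summed to 274745, 160348 and 520671, and levels are given as CPM, counts scaled to the same non-globin total in each library. A single barcode sequence was shared by members of 2 libraries, aged and aged-GA. A doublet caller marked 2 young, 4 aged and 4 aged-GA members.

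The 3 marker genes were Slc4a1, which encodes the anion exchanger band 3, Alas2, the first and rate-limiting enzyme of haem synthesis in red cells, and Car2, a carbonic anhydrase. Slc4a1 lies at chr11:102348824-102366203 (minus strand), Alas2 at chrX:150547375-150570638 (plus strand) and Car2 at chr3:14886273-14900770 (plus strand) of GRCm38. After each member was thinned to 200 non-globin UMIs, at least 1 of these genes was found in 100% (98.9% to 100%) of young, 92.3% (88.1% to 95.4%) of aged and 98.7% (97.8% to 99.3%) of aged-GA members, and unthinned in 100%, 99.1% and 99.3%. Barcodes with at least 3 UMIs of Cd3 genes, which should lack them, gave 0.440%, 1.20% and 1.45% at the same depth, although before thinning their medians were 5099, 4913 and 6285 non-globin UMIs and their shares 5.86%, 13.6% and 14.5%. The markers of the label were thus far above the level that free RNA gave in the same libraries. Alas2 was the most widely found, in 99.4% of thinned young members, where Car2 was found in 73.5% and Slc4a1 in 32.4%.

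Promoters of 3 erythroid markers are shown because they hold the letters AGATAA, a form of the site that GATA factors such as Gata1, a principal regulator of erythroid genes, are known to bind. Each runs 5′ to 3′ over the 250 bases before the start in RefSeq (GRCm38.p6), and the capitals mark AGATAA or its reverse complement TTATCT.
Alas2, chrX:150547167-150547416, plus strand: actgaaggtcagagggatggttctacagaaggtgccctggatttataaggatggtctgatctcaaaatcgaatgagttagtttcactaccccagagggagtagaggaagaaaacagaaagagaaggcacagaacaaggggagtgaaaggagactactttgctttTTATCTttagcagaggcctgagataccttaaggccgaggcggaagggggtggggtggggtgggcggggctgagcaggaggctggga
Epb42, chr2:121036878-121037127, minus strand: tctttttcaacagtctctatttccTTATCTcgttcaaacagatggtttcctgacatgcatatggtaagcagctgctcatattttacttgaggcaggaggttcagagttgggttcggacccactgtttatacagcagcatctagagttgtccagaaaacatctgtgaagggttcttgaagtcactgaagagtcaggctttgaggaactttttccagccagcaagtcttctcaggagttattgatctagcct
Rhd, chr4:134864286-134864535, plus strand: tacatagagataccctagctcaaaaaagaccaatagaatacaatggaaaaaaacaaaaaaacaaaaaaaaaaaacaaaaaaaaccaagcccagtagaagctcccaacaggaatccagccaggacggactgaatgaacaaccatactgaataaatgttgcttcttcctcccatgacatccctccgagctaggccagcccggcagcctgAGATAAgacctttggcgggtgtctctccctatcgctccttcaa
Of the erythroid markers, 6 had an entry and 3 of them held AGATAA on either strand, compared with 9.99% of all 32851 promoters of this length. CACCC, on either strand and without overlap with the GATA letters, was found in 2 of the 6 and in 52% of all. These matches describe the letters and not binding. The RNA of Alas2 and Rhd did not share 1 pattern over the libraries. Alas2 stood at 26388, 16227 and 30255 CPM in young, aged and aged-GA members, whereas Rhd, a subunit of the Rh complex, was highest in young members at 353 CPM, with 74.8 and 117 CPM in the others. Rhd is also 1 of the genes picked below for the largest ratio down in aged members, with 97 UMIs in young and 12 in aged members. Its lower level in aged than in young members thus restates that choice.

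The list of late erythroid genes held 13.5%, 6.47% and 10.1% of non-globin UMIs. Levels of single genes in this paragraph are means of libraries that differed, for Ubb from 21385 to 66374 CPM. Of the 20 most abundant genes, Ubb had 41657 CPM and encodes polyubiquitin, Bpgm 28572 CPM and makes 2,3-bisphosphoglycerate, which lowers the oxygen affinity of haemoglobin, and Alas2 24290 CPM. Mkrn1 (a ubiquitin ligase, 22815 CPM), Gpx1 (glutathione peroxidase, 16694 CPM), Ftl1 and Fth1 (ferritin chains, 16135 and 11803 CPM), Bnip3l (a receptor for the removal of mitochondria, 8974 CPM) and Prdx2 (a peroxiredoxin, 8650 CPM) were also among them. The most abundant by this mean was Gm42418, a transcript that overlaps ribosomal RNA, at 76233 CPM. In young members, however, Ubb stood above it, with 18236 UMIs against 14287. These values compare UMIs of 3′ tags, which count molecules and are not divided by gene length.

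Most genes of earlier, dividing stages were at or near 0. Kit, the receptor of erythroid progenitors, and Epor, the erythropoietin receptor, had 0 UMIs in all 3 libraries, which allows at most 10.9, 18.7 and 5.76 CPM in young, aged and aged-GA members when 3 counts are taken as the limit. Gata1 had 2, 3 and 5 UMIs, Klf1, another erythroid transcription factor, 4, 0 and 2, Tfrc, the transferrin receptor, 11, 7 and 19, and Mki67, a marker of dividing cells, 6, 5 and 15. Ube2c, a ubiquitin-conjugating enzyme of mitosis, was an exception among the 13 genes of proliferating erythroblasts, with 1187, 265 and 1229 UMIs. Cks2, a binding partner of cyclin-dependent kinases, was another, with 4, 64 and 46 UMIs, and 54 of the 64 in aged members lay in 26 aged barcodes that held at least 500 genes each. The other genes of this list had between 0 and 15 UMIs in each library. Of the marker genes listed for erythroid cells, 11 were in the gene table and Ahsp was not.

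A part of the aged members went against the label. Members with at least 500 genes numbered 1, 26 and 11. These 26 barcodes held 35.7% of the aged non-globin UMIs, compared with 0.474% in young and 4.57% in aged-GA mice. In the 16 of these aged barcodes with the fewest genes, Slc4a1 stood at 199.04 CPM, Car2 at 79.6 CPM and Bpgm at 3105 CPM, whereas S100a8, a calcium-binding protein abundant in neutrophils, reached 19068 CPM. In the other 10, with the most genes, Slc4a1 was at 0, S100a8 at 29363 CPM and Mcpt8, a protease of basophils, at 1091 CPM, and globin made up a median of 63.1% of UMIs. Of the 11 aged-GA barcodes, the 10 with the fewest genes had S100a8 at 37677 CPM and Slc4a1 at 0. These S100a8 levels are pooled values that a few barcodes carried. In aged mice 7 of the 26 held over 100 UMIs of leukocyte or platelet markers each, and with them 98.03% of the S100a8 UMIs and 87.7% of all these marker UMIs, and in aged-GA mice 4 of the 11 held 99.9% and 93.0%. By the marker list with the most UMIs, neutrophil markers led in 8 of the 26 aged barcodes, basophil markers in 12, and B-cell and macrophage or monocyte markers in 3 each. S100a8 was at 0 in 14 of them and Mcpt8 was found in 10. Erythroid markers, in contrast, were low in every one of the 26, with 0.121% to 2.98% of non-globin UMIs (median 0.853%), where the aged members with fewer than 500 genes held 7.95% together. Alas2 was still found, at 4498 CPM in the former 16. At least 1 of the 3 marker genes was found in 53.8% of the 26 aged barcodes after thinning, and in 96.1% of the aged members with fewer than 500 genes. These barcodes are thus members by the rule but are not called erythroid cells, and the main comparisons are given with and without them. The limit of 500 genes was set after these values were seen.

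Markers of other cells moved with the libraries also outside these barcodes. Over the 81 markers of 9 leukocyte and platelet types, the share of the members' non-globin UMIs was 0.0928%, 3.34% and 1.40%, and 40, 11 and 5 of these genes were at 0. The most abundant was Igkc in young and aged-GA members and S100a9 in aged members. Without the barcodes of at least 500 genes the share was 0.0892%, 1.19% and 1.08%, which is near that of gene-poor barcodes, at 0.127%, 1.19% and 1.11%. More than 2 UMIs of these genes were found in 16 young members (4.72%, 2.72% to 7.55%), 188 aged members (80.7%, 75.02% to 85.6%) and 789 aged-GA members (83.0%, 80.4% to 85.3%). By type and over all members, neutrophil markers held 0.00473%, 2.52% and 0.527% of non-globin UMIs, B-cell markers 0.0462%, 0.334% and 0.556%, T-cell markers 0.0240%, 0.0355% and 0.109%, NK-cell markers 0.00946%, 0.0200% and 0.0315%, and macrophage or monocyte markers 0.00218%, 0.238% and 0.0845%. Basophil markers held 0%, 0.102% and 0.0117%, plasma-cell markers 0.00218%, 0.0412% and 0.0501%, dendritic-cell markers 0.00400%, 0.0143% and 0.0108%, and platelet markers 0%, 0.0299% and 0.0163%. Among members with fewer than 500 genes neutrophil markers held 0.00475%, 0.405% and 0.204%, B-cell markers 0.0453%, 0.397% and 0.578%, T-cell markers 0.0234%, 0.0504% and 0.109%, and macrophage or monocyte markers 0.00219%, 0.205% and 0.0763%. Basophil markers held 0%, 0.00582% and 0.000201% there, so that they were nearly confined to the barcodes of at least 500 genes, whereas neutrophil and B-cell markers were higher in both aged libraries than in the young one in either set. The rule itself limits lymphocyte genes, among them Cd3d and Cd3g of the T-cell list, so shares of lymphocyte markers are partly set by it. The part of this leukocyte RNA in the levels of other genes was not tested.

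**Figure D2:**
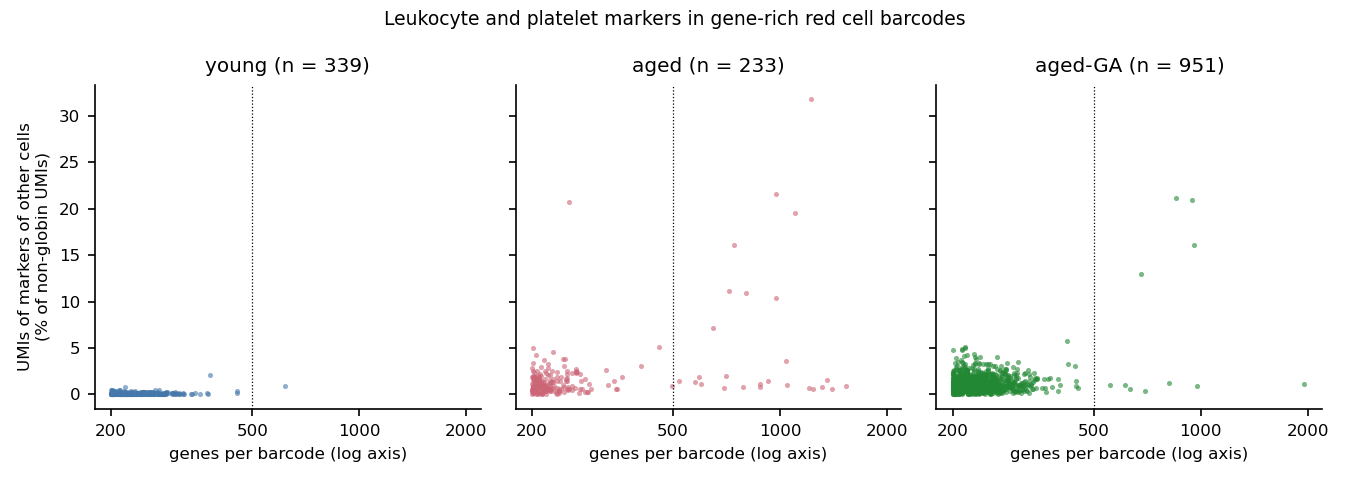
Share of non-globin UMIs that came from the 81 markers of leukocytes and platelets against the number of genes (log axis), 1 point per member, with a dotted line at 500 genes. Nearly all young members lie close to 0, most aged and aged-GA members lie between 0% and 5%, and all but 1 of the barcodes with the highest shares lie to the right of the line.

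The first comparison asks how members of aged mice differed from those of young mice. Over all members, 197 of 648 genes (30.4%), all with 50 UMIs or more when both libraries are added, were at least 2-fold higher in aged members and 130 (20.1%) at least 2-fold lower, on a scale of log2(CPM + 10), which understates the ratio of low genes. Among members with fewer than 500 genes, 66 of 503 genes (13.1%) were higher and 63 (12.5%) lower. The 10 genes with the largest ratio up were Ccl4, S100a8, S100a9, Retnlg, Ccl3, Hdc, Cxcl2, Ifitm1, Il1b and S100a6, which are chemokines and other genes of neutrophils, basophils and other leukocytes. Ccl4 had 1160 UMIs in aged and 1 in young members, and 97.2% of the aged UMIs lay in the 26 barcodes of at least 500 genes. For the other 9 genes that share was between 84.6% and 95.1%, and Retnlg, Hdc, Cxcl2 and Ifitm1 had 0 UMIs in young members. Applied to members with fewer than 500 genes, the same rule led with Lyz2 (141 UMIs in aged, 2 in young), S100a8 (150 UMIs in aged, 3 in young), S100a9 (173 UMIs in aged, 6 in young), Fcer1g (56 UMIs in aged, 6 in young) and H2-Eb1 (52 UMIs in aged, 6 in young). These are again genes of leukocytes.

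The 10 genes with the largest ratio down were of another kind and included Rab3il1, Fam220a, Yipf4, Urod, Zfand6, Dnajb2, Ifrd2, Hbq1a and Rhd. Urod encodes an enzyme in the middle of the haem pathway. It had 274, 31 and 146 UMIs, or 997 CPM (883 to 1123), 193 CPM (131 to 274) and 280 CPM (237 to 330). Urod was thus highest in young members, with an interval that did not overlap those of the other libraries. The intervals of aged and aged-GA members overlapped. Urod was picked for its ratio, and of the libraries compared only the young one reached the minimum of UMIs by itself. Its lower level in aged than in young members thus restates that choice. Gene-poor barcodes were not used for the choice, and there too Urod was highest in young mice. They come from the same libraries, however, and are no independent check of a difference between groups. In aged members, 4 of the 31 UMIs lay in barcodes of at least 500 genes. Without those barcodes the log2 ratio, aged over young, was -1.90, and in members with 8000 to 12000 UMIs and fewer than 500 genes Urod stood at 1076 CPM (901 to 1274), 357 CPM (185 to 624) and 371 CPM (289 to 470).

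Genes of the red cell itself were compared by their roles, and the median log2 ratio of each list stands beside that of all genes counted, which was -0.09 over all members and -0.22 over members with fewer than 500 genes. The counts past 2-fold in each list stand beside shares of all genes counted in these sets, 20.1% and 12.5% down and 30.4% and 13.1% up. For the 11 erythroid marker genes in the table, of which 10 were counted, the median was -1.24 and -0.68, with 6 and 4 past 2-fold down and 0 up. Of the 8 genes of haem synthesis, 4 were counted, with a median of -1.56 over all members and -1.07 without the barcodes of at least 500 genes. Urod was past 2-fold down in both, whereas Alas2 stood at -0.70 and -0.17 and Fech, which inserts the iron, at -0.81 and -0.25. At matched depth (8000 to 12000 UMIs and fewer than 500 genes) the direction of Alas2 turned, to a log2 ratio of 0.17, with 24819 CPM (23952 to 25710) in young and 27857 CPM (26101 to 29701) in aged members, and Fech stood at -0.07. Of the 18 genes of iron and haem handling, 7 were counted, with medians of -0.996 and -0.61. Past 2-fold down were 3 and 1 of them, and the second count, 1 of 7, is near the 12.5% of all genes. Slc48a1, a transporter of haem, was the 1 that passed in both, at -1.48 and -1.03, while Slc25a37, which carries iron into mitochondria, stood at -0.26 and 0.28.

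Car2 was the only counted member of the list of carbonic anhydrases and the globin chaperone, and it differed most among the 3 marker genes. Its level was 10708 CPM (10325 to 11102), 2794 CPM (2541 to 3065) and 3766 CPM (3601 to 3937). Without the barcodes of at least 500 genes it was 10759, 4256 and 3945 CPM, and in members with 8000 to 12000 UMIs and fewer than 500 genes it was 10443 CPM (9883 to 11026), 3542 CPM (2934 to 4238) and 4905 CPM (4592 to 5234). Young members were thus the highest under these 3 choices, whereas the order of aged and aged-GA members changed with the choice. After each barcode was thinned to 200 non-globin UMIs, Car2 was found in 73.5% (68.4% to 78.1%), 36.1% (29.9% to 42.6%) and 32.1% (29.1% to 35.1%) of members, and unthinned in 93.5%, 54.5% and 49.0%.

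Of 27 genes of the membrane skeleton and surface, 13 were counted, with a median of -1.41 over all members and -0.81 without the barcodes of at least 500 genes. Past 2-fold were 0 up and 7 down over all members, and 0 up and 4 down in the rest. Rhd, whose levels rest on 97, 12 and 61 UMIs, was past 2-fold down in both sets. It was among the 10 genes picked for the largest ratio down. Of the libraries compared, only the young one reached the minimum of UMIs for Rhd by itself. Its count as past 2-fold down, here and among the erythroid markers, thus restates that choice. Tmod1, tropomodulin, and Bsg, basigin, also passed in both, at -1.09 and -1.06 without those barcodes, but Tmod1 turned to 0.028 in members with at most 2 UMIs of other cells' markers, where it rests on 53 UMIs in young and 5 in aged members. Other genes of the skeleton stood otherwise. Epb41, protein 4.1, stood at 5529, 6255 and 6676 CPM over all members and at 5548, 9220 and 6955 CPM without the barcodes of at least 500 genes, so that it was highest in aged members there. Sptb, beta-spectrin, had log2 ratios of -0.08 over all members and 0.52 in those with fewer than 500 genes. Slc4a1 turned likewise, from -0.43 to 0.17. Its level was 1980 CPM (1817 to 2154) in young and 1466 CPM (1284 to 1665) in aged members, and 1986 CPM (1822 to 2160) and 2230 CPM (1951 to 2537) in those with fewer than 500 genes, where the intervals overlapped.

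**Figure D3:**
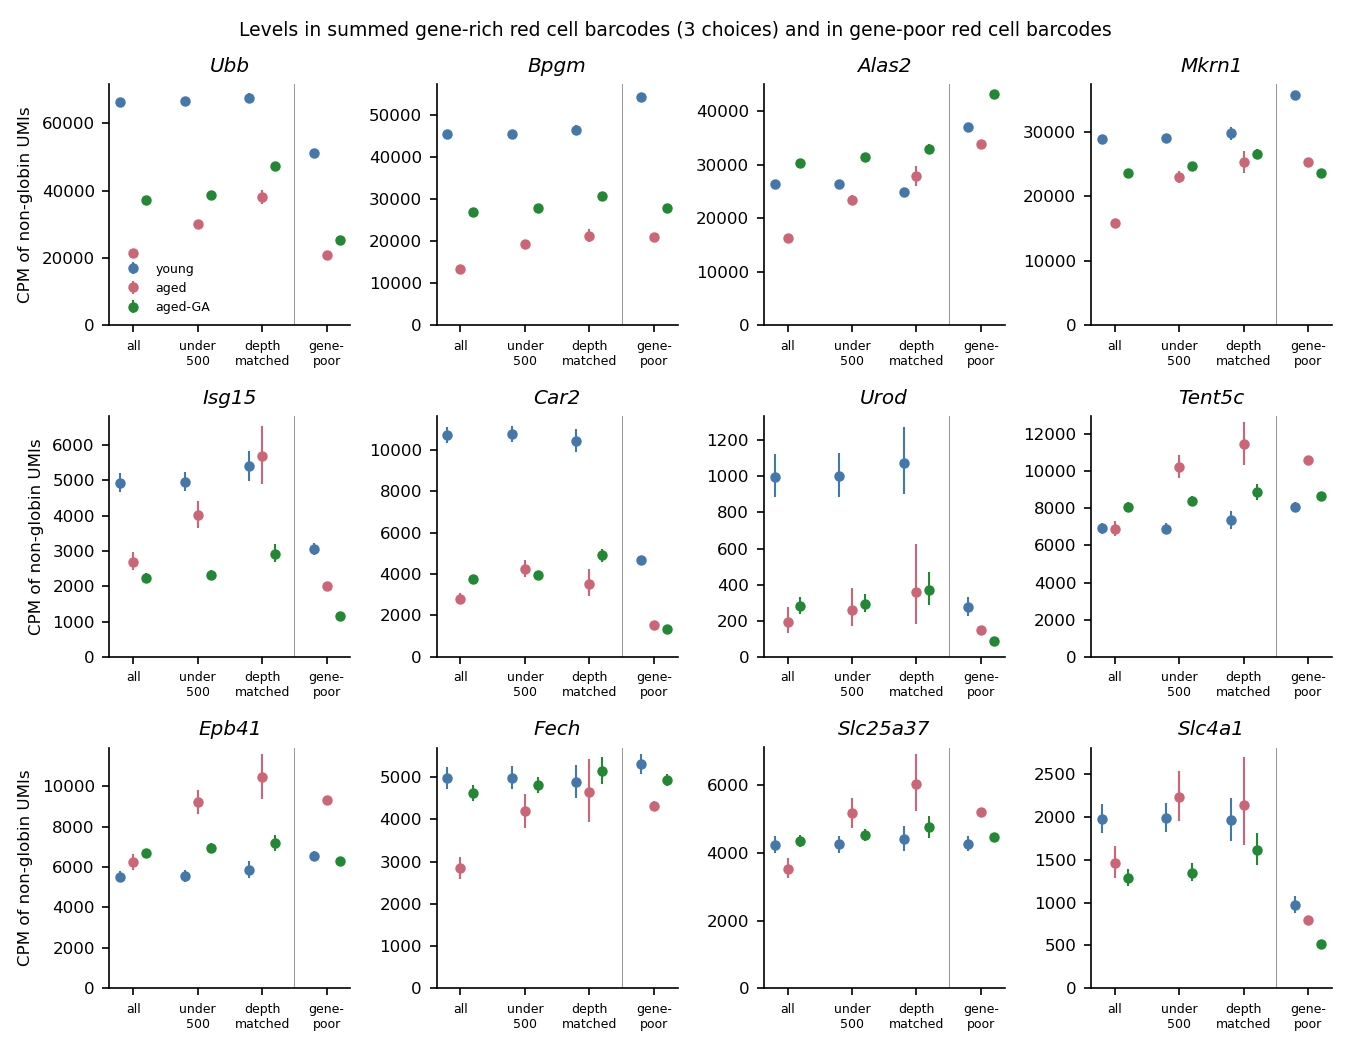
Levels of 12 genes in CPM of non-globin UMIs, in young, aged and aged-GA barcodes, with bars for the exact 95% counting interval. Each panel shows all members, members under 500 genes, depth-matched members (8000 to 12000 UMIs and under 500 genes) and, right of the line, gene-poor globin-rich barcodes. Ubb, Bpgm, Car2 and Urod were highest in young barcodes in all 4 columns, and Epb41 and Tent5c were highest in aged barcodes once those of at least 500 genes were left out.

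Ubb and Bpgm, abundant in all 3 libraries, were highest in young members. Ubb stood at 66374 CPM (65414 to 67345), 21385 CPM (20675 to 22113) and 37212 CPM (36690 to 37739), and at 67587, 38036 and 47186 CPM at matched depth without the barcodes of at least 500 genes. Bpgm, at chr6:34476207-34505613 (plus strand), stood at 45479 CPM (44685 to 46283), 13346 CPM (12787 to 13924) and 26892 CPM (26449 to 27341), and at 46500, 21250 and 30808 CPM at matched depth. For both genes the order from the highest was young, aged-GA, aged in both sets, with intervals that did not overlap. In the median barcode Bpgm had 36, 9 and 14 UMIs, at the unequal depths of 772, 503 and 512 non-globin UMIs.

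The list of ubiquitin and proteasome remodelling, which holds Ubb, had 14 of 17 genes counted and medians of -0.87 and -0.36. Over all members 1 was past 2-fold up and 5 down. Ube2b, a ubiquitin-conjugating enzyme, and Trim10, a ligase of erythroid cells, were lower without the barcodes of at least 500 genes too, at -1.12 and -1.23, whereas Ube2o, which marks ribosomal proteins for destruction in reticulocytes, stood at 0.60. Of 13 genes of mitochondrial clearance and autophagy 6 were counted, with medians of -0.77 and -0.54, and 2 and 0 were past 2-fold. Bnip3l stood at -0.55 and -0.03. Of 15 late erythroid genes 12 were counted, with medians of -0.94 and -0.41. Past 2-fold down were 5 and 2 of them, with Bpgm in both, beside 20.1% and 12.5% of all genes counted. The second count, 2 of 12, is near that share. Tent5c, a poly(A) polymerase, stood at 6912, 6910 and 8067 CPM over all members and at 6908, 10238 and 8378 CPM without the barcodes of at least 500 genes.

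Young members held more UMIs, and at matched depth the median of all genes counted was -0.19. The median was -0.37 for erythroid markers, -0.23 for ubiquitin and proteasome remodelling and -0.24 for late erythroid genes, so that the ubiquitin and late erythroid lists hardly differed from all genes. It was -0.45 for clearance and autophagy, -0.51 for iron and haem handling, -0.74 for haem synthesis and -0.85 for the membrane list.

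The remaining lists held few counted genes. Of 13 antioxidant genes 8 were counted, with a median of -0.37 and 3 past 2-fold in each direction. Without the barcodes of at least 500 genes 6 were counted, with a median of -0.42 and 0 past 2-fold. Of 14 erythroid transcription factors 3 were counted (Lmo2, Foxo3 and Mxi1), with medians of -0.79 and -0.39. Pim1 and Bcl2l1 were the counted genes of the 10 of erythropoietin signalling, with medians of 0.19 and -0.10. Of the 15 genes of glycolysis and 2,3-bisphosphoglycerate Bpgm and Gapdh were counted, with a median of 0.62 over all members, and Bpgm alone without those barcodes, at -1.24. Bpgm held 12495 of the 12522 UMIs of this list in young members and 2140 of 2326 in aged ones. Gapdh thus could not reach the minimum in the young library by itself, and no direction is read from this median. Ube2c and Cks2 were the counted genes of proliferating erythroblasts, with a median of 1.34, and Ube2c alone stood at -0.85 in the members with fewer than 500 genes. Cks2 reached the minimum of 50 UMIs in the aged library by itself, so no direction is read from this median. Of 12 interferon-stimulated genes 4 were counted, with a median of -0.02, and 3 without the barcodes of at least 500 genes, with a median of -0.30. Of 14 heat shock and immediate early genes 8 were counted, all of them past 2-fold up, but 7 of the 8 reached 50 UMIs in the aged library by itself and 1 in the young library by itself, so that this direction was largely set by the minimum and no median is read from it. Of their 912 aged UMIs, 80.3% lay in the 26 barcodes of at least 500 genes. Hsp90ab1, a heat shock protein, was the 1 that reached the minimum in each library, with 51 UMIs in young and 62 in aged members, 26 of the latter in the 26 barcodes.

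**Figure D4:**
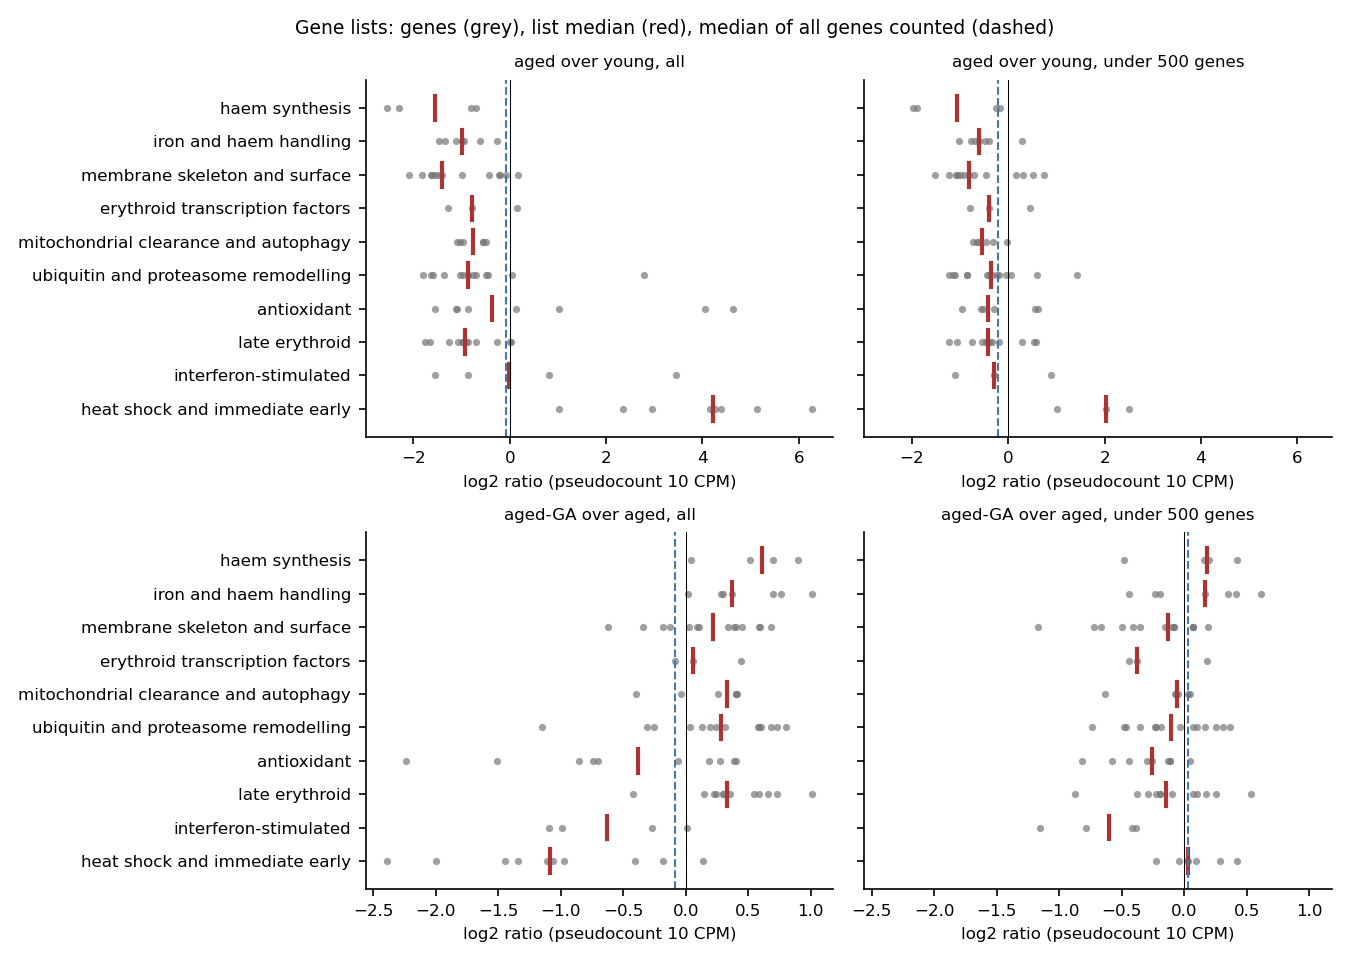
Log2 ratios (pseudocount 10 CPM) of the counted genes of 10 lists (grey points) with the list median (red bar) and the median of all genes counted (dashed), aged over young above and aged-GA over aged below, for all members on the left and members under 500 genes on the right. In aged over young the medians lie left of 0 except for heat shock and immediate early genes, most of which reached the minimum of 50 UMIs in the aged library by itself, and in aged-GA over aged they lie nearer to 0 once the barcodes of at least 500 genes are left out (over fewer genes for antioxidant, heat shock and immediate early genes), except for erythroid transcription factors, while the median of interferon-stimulated genes hardly differs (-0.63 and -0.60).

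The second comparison asks how members of aged-GA mice differed from those of aged mice. Over all members, 27 of 1042 genes (2.59%) were at least 2-fold higher in aged-GA members and 156 (15%) at least 2-fold lower. This comparison shares the aged library with the first, so a low or high value there moves both. Among members with fewer than 500 genes, 30 of 836 genes (3.59%) were higher and 24 (2.87%) lower. The 10 genes with the largest ratio down were Cyp11a1, Mcpt8, Hdc, Ccl3, Ccl4, Ccl9, Lilr4b, Retnlg, Ier3 and Acod1, and between 86.5% and 98.2% of their UMIs in aged members lay in the 26 barcodes of at least 500 genes. Cyp11a1 and Mcpt8, genes of basophils, had 55 and 50 UMIs in aged and 7 and 6 in aged-GA members. The 10 with the largest ratio up were Mthfd2, Gm47283, Il7r, Cd3g, Cd3d, Ms4a4b, Ccl5, Ly6d, Gstm5 and Hnrnpa1. Cd3g and Cd3d were among the genes the rule limits, and Il7r, Ms4a4b and Ccl5 are known from T cells and Ly6d from B cells. Mthfd2, a mitochondrial enzyme of folate metabolism, had 98 UMIs in aged-GA, 2 in aged and 7 in young members. Its level was 188 CPM (153 to 229) in aged-GA, 12.5 CPM (1.51 to 45.1) in aged and 25.5 CPM (10.2 to 52.5) in young members, and in gene-poor barcodes it was 220 CPM (191 to 252) in aged-GA, 85.1 CPM (69.1 to 104) in aged and 109 CPM (77.9 to 147) in young mice. In members with fewer than 500 genes its level was 195 CPM (158 to 238) in aged-GA, 19.4 CPM (2.35 to 70.04) in aged and 21.9 CPM (8.05 to 47.8) in young members. Mthfd2 was picked for its ratio, and of the 2 libraries compared it reached 50 UMIs in the aged-GA one alone. Its higher level in aged-GA than in aged members thus restates that choice in both sets of members. Gene-poor barcodes were not used for the choice, and there too its level was highest in aged-GA mice, but they come from the same libraries. Aged members held too few of its UMIs to be told from young ones. Applied to members with fewer than 500 genes, the same rule led with Mthfd2, Cd69, a gene of activated lymphocytes, and Sri upwards, and the 10 genes had between 2 and 13 UMIs each in aged members. Downwards it led with Fcer1g (62 UMIs in aged-GA, 56 in aged), Ccl4 (45 and 33 UMIs), Lyz2 (210 and 141 UMIs) and Foxo4 (33 and 24 UMIs), of which the first 3 are known from leukocytes.

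Most red cell lists had medians above 0 over all members, and values nearer to 0 without the barcodes of at least 500 genes. The median log2 ratio was 0.61 for haem synthesis, 0.37 for iron and haem handling, 0.22 for the membrane list, 0.33 for clearance and autophagy, 0.28 for ubiquitin and proteasome remodelling and 0.33 for late erythroid genes, beside -0.09 for all genes counted. Without the barcodes of at least 500 genes these medians were 0.18, 0.16, -0.13, -0.06, -0.11 and -0.14, beside 0.03 for all genes. Of the genes of these 6 lists, Bpgm and Slc48a1 were past 2-fold up, both at 1.01, and 1 gene of ubiquitin and proteasome remodelling was past 2-fold down. Without the barcodes of at least 500 genes Bpgm and Slc48a1 stood at 0.53 and 0.61, and 0 genes of the ubiquitin list were past 2-fold. Alas2 stood at 16227 CPM (15610 to 16863) in aged and 30255 CPM (29785 to 30731) in aged-GA members, and at 27857 CPM (26101 to 29701) and 32987 CPM (32166 to 33823) at matched depth without the barcodes of at least 500 genes, where young members stood at 24819 CPM (23952 to 25710). Sptb was the 1 gene of these lists past 2-fold in members with fewer than 500 genes, at -1.17.

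The other lists stood as follows, over all members and then without the barcodes of at least 500 genes. The medians were 0.06 and -0.38 for erythroid transcription factors (3 genes in both) and -0.43 and -0.17 for erythropoietin signalling (2 genes in both). In the next lists fewer genes reached the minimum in the second set, so that the values of a pair cover different genes. The medians were -0.38 over 10 and -0.26 over 9 antioxidant genes, -1.02 over 5 and 0.10 over 2 genes of glycolysis, and -1.09 over 10 and 0.03 over 7 heat shock and immediate early genes. Of proliferating erythroblasts, 2 genes had a median of -0.77 and Ube2c alone stood at 0.03. Car2, alone in its list, stood at 0.43 and -0.11. The interferon-stimulated list had medians of -0.63 and -0.60, with 1 of its 4 counted genes past 2-fold down in each set. Isg15, a ubiquitin-like protein induced by interferon, stood at 4935, 2700 and 2239 CPM in young, aged and aged-GA members and at 4959, 4014 and 2318 CPM without the barcodes of at least 500 genes, and in gene-poor barcodes at 3051 CPM (2877 to 3232), 2013 CPM (1932 to 2097) and 1161 CPM (1093 to 1232). Its order from the highest was young, aged, aged-GA in these 3 sets, but at matched depth without the barcodes of at least 500 genes aged members (5685 CPM, 4907 to 6550) stood beside young ones (5394 CPM, 4994 to 5818), with aged-GA members at 2926 CPM (2685 to 3182). Ifitm3, which restricts virus entry, stood at 508, 950.1 and 421 CPM in members with fewer than 500 genes and at 810, 835 and 425 CPM in gene-poor barcodes.

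Globin itself varied little. The ratio of alpha to beta UMIs was 0.526, 0.528 and 0.551, and 0.526, 0.527 and 0.551 without the barcodes of at least 500 genes. In gene-poor barcodes it was 0.474, 0.509 and 0.542, so that it was lower than in members of the same library each time. Hbb-bt took 14.8%, 12.5% and 12.03% of globin UMIs and Hbb-bs 50.7%, 52.9% and 52.4%. The alpha genes Hba-a1 and Hba-a2 are nearly identical, as are Hbb-bs and Hbb-bt, so the split within each pair is uncertain. Embryonic globins were nearly absent. Hbb-bh1 had 10, 4 and 5 UMIs and Hbb-y 6, 0 and 5 of 3726843, 1608404 and 6725259 globin UMIs. Hbq1a, a theta globin, had 150 UMIs, 19 and 107.

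Classes of other transcripts moved with the libraries as well. Of the members' non-globin UMIs, 2.58%, 2.15% and 3.07% came from mitochondrially encoded genes. Ribosomal protein genes took 5.38%, 9.50% and 9.68%, and Gm42418 with AY036118, which overlap ribosomal RNA, 7.31%, 10.1% and 10.4%. Gm42418 alone stood at 51941, 121934 and 91452 CPM in members with fewer than 500 genes and at 89066, 141525 and 121170 CPM in gene-poor barcodes. Its share was thus lowest in young barcodes in both, and its part in the levels of other genes, which share the denominator, was not tested.

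Gene-poor barcodes, which the main comparisons leave out, gave the same genes at other levels. Car2 stood at 4671, 1538 and 1366 CPM in gene-poor young, aged and aged-GA barcodes, below the 10708, 2794 and 3766 CPM of members. Urod stood at 275, 148 and 88.2 CPM and Trim10 at 1111, 453 and 375 CPM, each below members. Alas2 stood at 37049, 33809 and 43171 CPM, above members. The number of genes that separates both kinds of barcode is part of the rule, so these levels are a description. Just inside that limit, in members within 10 genes above it, Car2 stood at 6926, 3536 and 2829 CPM, and just outside it, in globin-rich barcodes within 10 genes below it, at 8860, 3940 and 3311 CPM, with medians of 7113 and 7284 UMIs in aged mice. At the limit on globin, 5 aged members held 50 to 60% globin UMIs, with Slc4a1 at 0, and 2 aged barcodes that met the other limits held 40 to 50%, with Slc4a1 at 0. Mixed barcodes had 34.0%, 24.8% and 25.8% of non-globin UMIs in ribosomal protein genes and 1.58%, 0.675% and 1.12% in the erythroid markers, compared with 12.3%, 5.45% and 9.13% in members.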

How the data were processed

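The deposited matrices hold raw UMI counts per gene and barcode, 1 matrix for each of 3 libraries (10x Genomics 3′ kit, DNBseq platform). Their headers name Cell Ranger 5.0.0. The methods cite a different release, and the submitters' processing notes give mm10. No deposited cell types were used. The barcodes, gene lists and tests were chosen with earlier results of these data known, and the limits of 500 genes and of 8000 to 12000 UMIs were chosen after seeing the data.

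UMI counts of members were summed per library and divided by their non-globin total (CPM), because the globin share was part of the rule. Ratios are log2 with 10 CPM added, computed where a gene had 50 UMIs or more in the 2 libraries together, and a log2 ratio of at least 1 or at most -1 counts as past 2-fold. No test was possible with 1 library per group. Exact Poisson (levels) and binomial (shares) 95% intervals cover counting error only, and a count of 0 allows up to 3 counts. Libraries held 58894294 (young), 82260961 (aged) and 98155671 (aged-GA) UMIs.

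Besides the genes of 14 erythroid and pathway lists and the marker lists, the text names the 10 genes with the largest ratio each way, leaving aside globin, ribosomal protein, mitochondrial and antigen receptor genes, and the 20 most abundant. Some genes that met these rules are not reported here. Doublets were called by Scrublet in scanpy 1.11.5 at a fixed score, since its automatic threshold called 0 in aged-GA, and were left out only as an alternative. Computations used python 3.11.15, numpy 2.4.6 and scipy 1.17.1, and were tested on simulated data. Gene positions are from GENCODE for GRCm38, which is mm10.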

Additional observations from a re-analysis of the deposited data

How the results depend on the processing

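Values in 3s run young, aged, aged-GA. The share of members among barcodes was 0.203%, 0.218% and 0.473% with a minimum of 300 genes, 0.00922%, 0.162% and 0.0635% with 500 genes, 2.75%, 0.979% and 3.05% with no Cd79, Cd3 or Ptprc UMI, 0.281% (aged) and 0.935% (aged-GA) with at most 2 UMIs of other cells' markers, 1.54%, 0.436% and 1.77% at 8000 to 12000 UMIs, and 1.54%, 0.374% and 1.74% when those also had fewer than 500 genes. Only 16 of 339 young members had more than 2 UMIs of other cells' markers, so with that limit the young share was the highest. The share with a marker gene was 99.1% unthinned in aged members, 95.5%, 65.7% and 91.5% from 300 genes, 53.8% (aged) and 63.6% (aged-GA) from 500 genes, 96.3% (aged) over 70% globin, 100% (aged and aged-GA) with at most 2 such UMIs, 99.7% (aged-GA) at 8000 to 12000 UMIs, 96.1% (aged) under 500 genes, and 100% (aged) and 99.7% (aged-GA) with both limits.

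Genes past 2-fold in aged over young were 121 higher from 300 genes, 104 higher and 29 lower from 500 genes, 101 higher over 70% globin, 103 higher with no lymphocyte or Ptprc UMI, 27 higher and 65 lower with at most 2 UMIs of other cells' markers, 76 higher at 8000 to 12000 UMIs, 66 higher and 63 lower under 500 genes, and 11 higher and 34 lower with both limits. They were 4302 higher and 330 lower with no minimum beyond 1 UMI, 97 higher with a minimum of 100 UMIs, 30 lower with CPM over all UMIs, and 36 higher and 49 lower after thinning. In aged-GA over aged they were 109 higher and 90 lower from 300 genes, 10 higher and 17 lower from 500 genes, 63 lower over 70% globin, 14 higher and 86 lower with no lymphocyte or Ptprc UMI, 11 higher and 2 lower with at most 2 UMIs of other cells' markers, 73 lower at 8000 to 12000 UMIs, 24 lower under 500 genes and 4 lower with both limits. They were 11 higher with a pseudocount of 50 CPM, 375 higher and 1246 lower with no minimum, 15 higher and 79 lower from 100 UMIs, 1 higher with CPM over all UMIs, 90 lower as a mean over barcodes and 14 lower after thinning. CPM over all UMIs moved the median of all genes from -0.09 to 0.20 in aged over young and to -0.25 in aged-GA over aged.

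Lists above the median of all genes numbered 5 in aged over young, but 3 over 70% globin, with no lymphocyte or Ptprc UMI, with at most 2 UMIs of other cells' markers, with no minimum and from 100 UMIs, 2 at 8000 to 12000 UMIs, under 500 genes and with both limits, and 1 after thinning. In aged-GA over aged they were 8, and 4 under 500 genes. The median of proliferating erythroblast genes in aged over young was negative at -1.07 over 70% globin, -1.15 with no lymphocyte or Ptprc UMI, -0.73 with at most 2 UMIs, -1.48 at 8000 to 12000 UMIs, -0.85 under 500 genes, -0.72 with both limits, -0.41 with no minimum, -1.38 from 100 UMIs and -0.85 after thinning. These values cover 1 gene each, and 10 with no minimum, beside 2 genes over all members, so the change of sign compares different genes. The median of glycolysis in aged-GA over aged was positive at 0.71 from 300 genes, 0.78 from 500, 0.047 over 70% globin, 0.53 with at most 2 UMIs, 0.061 at 8000 to 12000 UMIs, 0.10 under 500 genes, 0.54 with both limits and 0.64 after thinning. Each of these covers 1 to 3 genes, beside 5 over all members, so the genes differ here too. Heat shock and immediate early genes in aged-GA over aged stood at 0.46 from 500 genes and 0.027 under 500, over 7 genes each beside 10 over all members.

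Single genes that turned in aged-GA over aged from 500 genes were Txn1 (0.12), Fos (0.65), Jun (0.87), Egr1 (0.24), Dusp1 (0.46), S100a8 (0.20), S100a9 (0.28), Cxcl2 (1.21), Il1b (1.00) and S100a6 (0.15), and under 500 genes Fos (0.020) and Dusp1 (0.092). Ifi27l2a stood at 0.16 after thinning. In aged over young, Tmod1 (0.028) and Fam210b (0.19) turned with at most 2 UMIs of other cells' markers. Settings that by construction let in fewer barcodes or genes mostly gave smaller counts, but not always. Under 500 genes, 30 genes were past 2-fold up in aged-GA over aged, beside 27 over all members. This count was larger still with the smaller of the raised minimum gene numbers. The causes of these changes were not tested.

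From 500 genes, mitochondrial genes took 5.3%, 1.82% and 4.32%, ribosomal protein genes 5.53%, 11.1% and 8.33%, globin 89.4%, 69.1% and 72.6%, and other cells' markers 0.845%, 7.21% and 8.08%. Under 500 genes, aged and aged-GA members had 2.32% and 3.01% mitochondrial, 93.5% and 93.1% globin and 1.19% and 1.08% other cells' marker UMIs, and aged members 8.59% ribosomal protein UMIs. No paired analysis was possible because each group had 1 library. Levels of genes with few UMIs are limited by depth, most of all in aged members.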
